A study of Anopheles gambiae with 16 samples.

Results

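Circulating hemocytes, the blood cells of the malaria mosquito Anopheles gambiae, were compared with carcasses, which here are decapitated bodies without the drawn hemolymph. The comparison rests on 8 of the 16 arrays of the series, 4 of hemocytes and 4 of carcasses, chosen by their sample titles, and on the 16884 probe sets whose IDs begin with Ag., read here as mosquito probe sets. All animals were adult females of the G3 strain, 1 to 2 days old counted from eclosion, and the series design calls them naive. In both groups 80 ng of total RNA was amplified in 2 rounds before hybridisation, and each array is a separate biological replicate per the labels. A carcass array pooled 20 females. The hemocyte labels give 1000 females in one entry and 500 in another, and the second also calls the females infected. Hemolymph was collected straight into the lysis buffer of a column kit, whereas carcasses were first extracted with Trizol, so tissue cannot be told apart from collection and extraction method. Heads (4 arrays, 2 rounds, 40 females per pool per the collection notes) and carcasses labelled with 1 round from 1000 ng (4 arrays) are used beside them. They entered the calls between hemocytes and carcasses only through the spread that all 4 groups share in the fit.

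Hemocytes circulate in the open body cavity of insects, take up particles and microbes, and release factors for melanization, clotting and complement-like killing. A mosquito carcass is a mixture of many tissues, among them muscle, fat body, gut, ovary, tracheae and cuticle, and hemocytes attached to tissues are part of it. In such bulk RNA, fewer cells of a type and less RNA per cell cannot be told apart. The files do not pair probe sets with genes, and 0 of the 16884 IDs matched the gene table for the species. No gene is therefore named here, the label hemocyte could not be checked against marker genes, and 2 probe sets that rose and 2 that fell are named by their array IDs.

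The largest differences between hemocytes and carcasses were at transcripts that were bright in carcasses and at or near background in hemocytes, while most transcripts higher in hemocytes were measurable in carcasses too. Of the 16884 probe sets, 1812 (10.7%) were higher in hemocytes and 1380 (8.17%) were lower, counting those with limma's adjusted p under 0.05 and at least a 2-fold change on the scale of log2(intensity + 16). The median difference was 1.43 on the log2 scale among those called higher and -2.11 among those called lower, beside 0.06 over all probe sets. At 2-fold the higher calls were the more numerous, though not with quantile normalization (1325 higher and 1399 lower), and from 4-fold on the lower ones were. At least 4-fold higher were 357 probe sets and at least 4-fold lower 732. At least 32-fold the counts were 4 and 148, and at least 128-fold they were 0 and 21. The 4 and 4 arrays had no overlap at 3586 probe sets (21.2%) with hemocytes on top and at 2066 (12.2%) with carcasses on top.

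**Figure D1:**
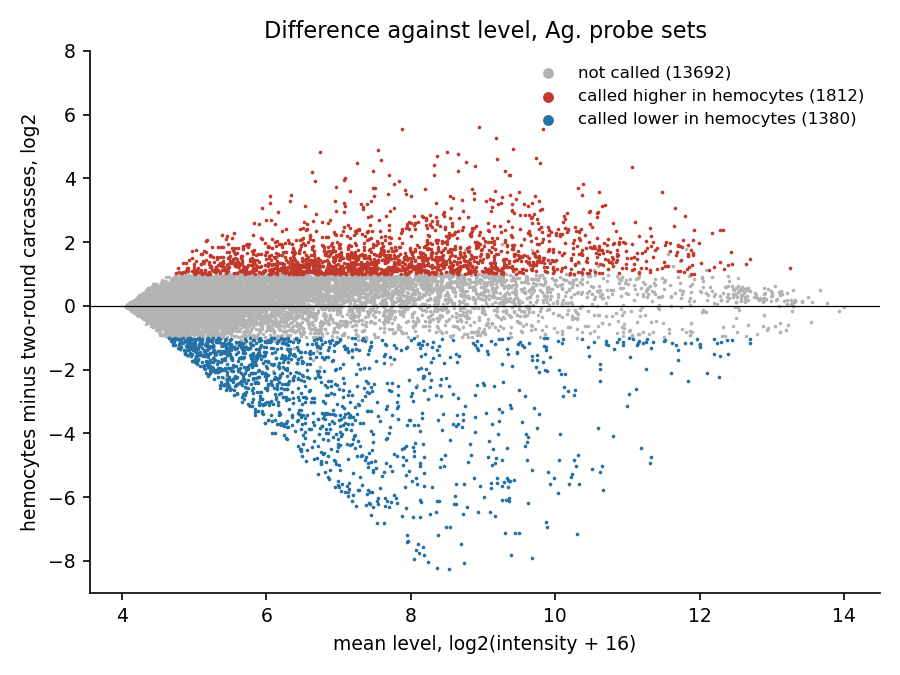
Each point is 1 of 16884 Ag. probe sets, with its mean level over hemocytes and two-round carcasses on the x axis, as log2(intensity + 16), and the difference of hemocytes minus carcasses on the y axis, in log2 units. The 1380 probe sets called lower (blue) reach below -8, while the 1812 called higher (red) stay below 6.

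The excess of large falls did not rest on dim probe sets alone. Background was taken on each array as the 95th percentile of the probe sets whose IDs begin with Pf., read here as those of the malaria parasite on the same array, and lay between 12.5 and 15.3 intensity units on the 8 arrays. Above it on all 8 arrays were 6801 probe sets, and here 1528 were called higher and 560 lower. At least 8-fold changes among them numbered 73 higher and 164 lower. At least 32-fold they numbered 4 and 49.

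**Figure D2:**
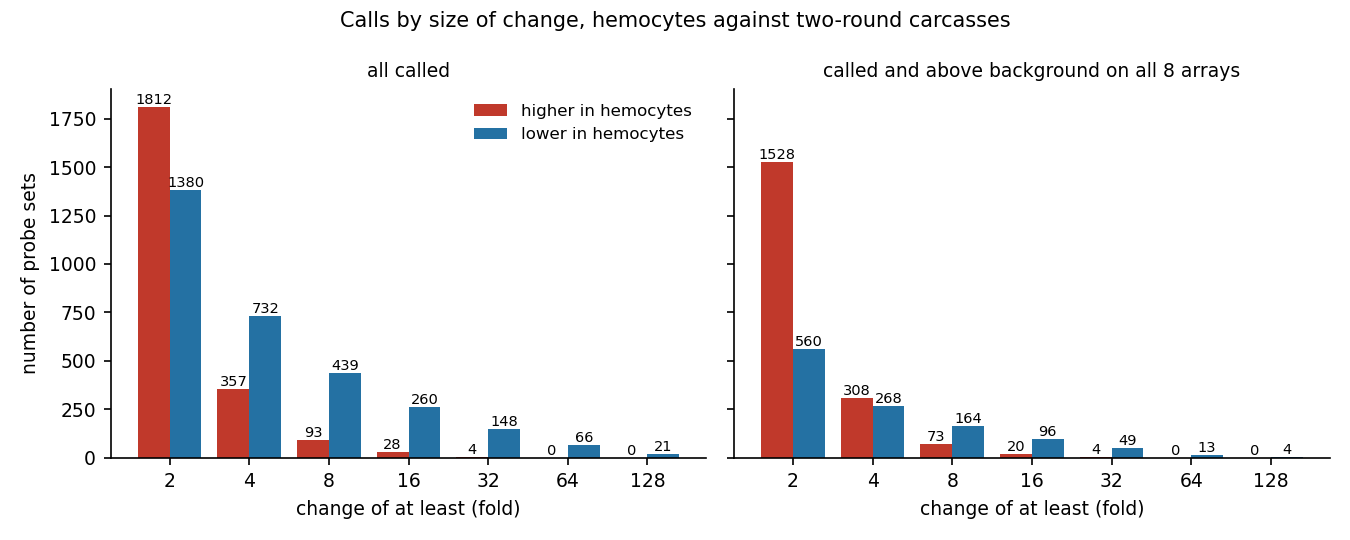
Bars count probe sets called higher (red) or lower (blue) in hemocytes than in two-round carcasses at or beyond each fold on the x axis, for all calls (left) and for probe sets above background on all 8 arrays (right). Without further scaling, higher calls outnumber lower ones at 2-fold in both panels (with quantile normalization 1325 against 1399 over all calls), and lower calls outnumber higher ones from 4-fold on the left and from 8-fold on the right.

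Detection showed the same imbalance. Of the 1812 probe sets called higher, 1528 (84.3%) were above background on all 4 carcass arrays and 71 (3.92%) on none. Of the 1380 called lower, 560 (40.6%) were above background on all 4 hemocyte arrays and 331 (24%) on none. Without regard to calls, 120 probe sets (0.711% of all) were above background on all 4 hemocyte arrays and on no carcass array, and 333 (1.97%) showed the reverse. Of the 120, 63 were also called, and of the 333, 296 were, beside 18.9% of all probe sets. The same arrays formed these sets and the calls, so these counts are no separate result. The 120 were dim, with a median intensity of 28.8 in hemocytes, 8 of them over 100 and 0 over 1000. The 333 had a median of 67.8 in carcasses, with 131 over 100 and 34 over 1000. Because the dim side is only bounded, the fold is a lower bound too. This bound had a median of 1.92 among the 120 and 4.94 among the 333. It was at least 10-fold for 6 of the 120 and for 105 of the 333, and at least 100-fold for 0 and 23.

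The arrays of the other groups, which had no part in forming these 2 sets, differed in how many of each they detected. On one-round carcasses, 288 of the 333 were above background on all 4 arrays and 4 on none. Of the 120, 19 were above it on all 4 one-round carcass arrays and 34 on none. Background itself was lower on the one-round arrays, between 8.83 and 10 units. In heads, 137 of the 333 were above background on all 4 arrays and 83 on none, while 11 of the 120 were above it on all 4 and 41 on none. Of the 13692 uncalled probe sets, 5982 were above background on all 4 heads and 3505 on none, shares near those of the 333. Single arrays had 10529 to 10954 of the 16884 probe sets above background in heads and 10937 to 11888 in one-round carcasses.

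The 2 named probe sets that rose were both above background on all 16 arrays. Among probe sets called, without overlap and above background on all 8 arrays (1504 higher and 534 lower), they had the largest rises, and the 2 named below had the largest falls. Ag.2R.1112.0_CDS_at, on chromosome arm 2R and marked as coding sequence by its ID, measured 3004, 2151, 4296 and 4990 intensity units on hemocyte arrays 1 to 4. On carcass arrays 1 to 4 it measured 84.5, 52.9, 35.2 and 54.8. Every hemocyte array was above every carcass array, which the rule for naming required. The spread within each tissue was small beside the gap, which was picked for its size. The log2 difference was 5.61 ± 0.34 (SE, n = 4 per group; limma, adjusted p = 3e-09). Heads measured 22.9 to 82.1 and one-round carcasses 21.8 to 68.9, so that the 3 other groups overlapped one another. Against heads, where 20.4% of all probe sets were called in either direction, the difference was 5.86 ± 0.34 (limma, adjusted p = 2.3e-09), from the same hemocyte arrays.

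Ag.UNKN.1005.1_at, whose ID gives no chromosome arm, measured 5643, 3799, 8135 and 8233 on hemocyte arrays 1 to 4 and 152, 82.7, 58.6 and 239 on the carcass arrays. The groups did not overlap, again by the rule for naming, and replicate 4 was the brightest array in both tissues. The difference was 5.54 ± 0.37 (SE; limma, adjusted p = 7.7e-09). Heads lay between 78.5 and 195, within the carcass range, and the difference of hemocytes from heads was 5.43 ± 0.37 (limma, adjusted p = 1.1e-08). By mean intensity this probe set ranked 139 of 16884 in hemocytes and 3264 in carcasses.

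The 2 that fell were among the brightest of the carcass. Ag.2L.168.0_CDS_at, on arm 2L, measured 11694, 12174, 12621 and 13756 on carcass arrays 1 to 4, rank 8 of all probe sets there, and 23.25, 27.5, 64.8 and 39.9 on the hemocyte arrays. The carcass arrays were close together, at 12562 ± 882 (SD, n = 4), while the hemocyte values stood against backgrounds of 12.51 to 13.35 on those arrays. The log2 difference was -7.90 ± 0.21 (SE; limma, adjusted p = 3.2e-13). One-round carcasses gave the same level, 12061 ± 1292. Heads lay between the other tissues at 1550 ± 339, and hemocytes were lower than heads as well, by -4.86 ± 0.21 (limma, adjusted p = 1e-10).

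Ag.3R.644.0_CDS_a_at, on arm 3R, measured 11261, 10719, 7982 and 10746 on carcass arrays 1 to 4 and 24.3, 39.4, 12.9 and 46.1 on the hemocyte arrays, with replicate 3 the lowest in both. Background on hemocyte replicate 3 was also 12.9 after rounding, so the rule for naming was met there by a very narrow margin. With background at the 99th percentile, 20.49 on that array, it would not have been met. The difference was -7.82 ± 0.67 (SE; limma, adjusted p = 1.6e-07). The standard error draws on all 4 groups, and heads were uneven here, with replicate 1 at 147 and the other 3 between 2783 and 2811. One-round carcasses measured 8893 to 11556, again with replicate 3 the lowest.

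**Figure D3:**
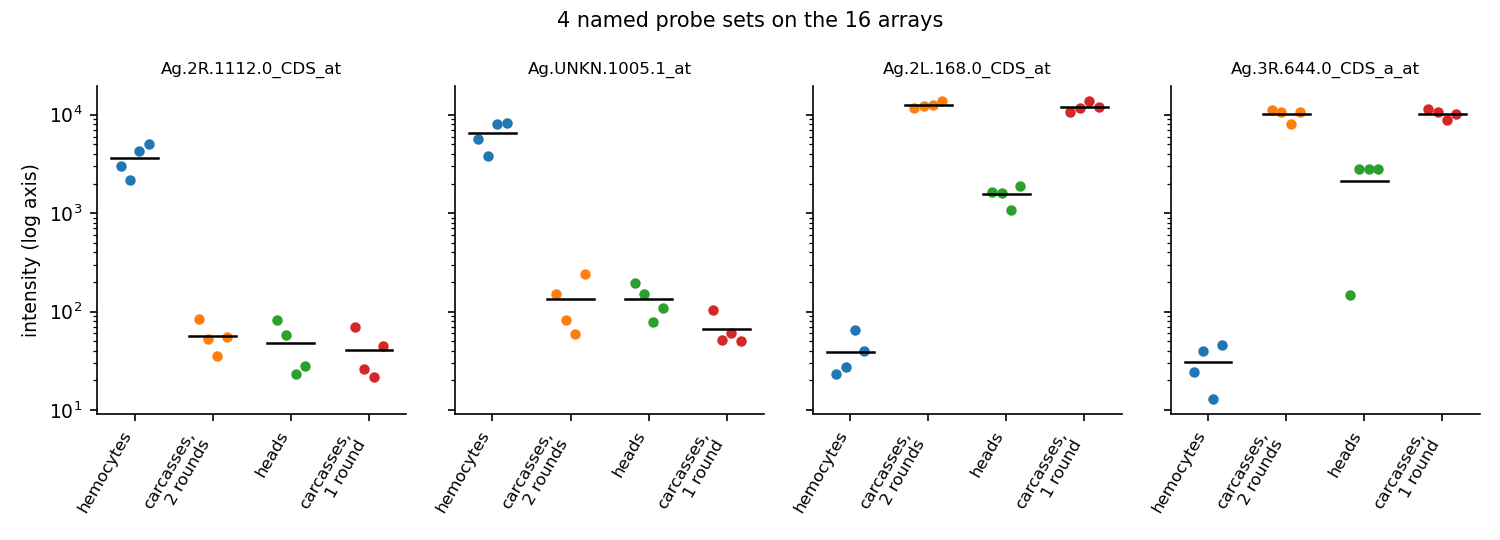
Intensity on a log axis of the 4 named probe sets on each of the 16 arrays, with points for replicates 1 to 4 from left to right and a line at the group mean. Hemocytes stand above all other arrays for the first 2 and below all others for the last 2, and head replicate 1 (147) stands apart from the other heads in the last panel.

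Most of the summed Ag. intensity lay in probe sets without a call, 57% to 59.3% on hemocyte arrays and 55.1% to 55.3% on carcass arrays. Probe sets called higher held 36.4% to 39.2% of the summed Ag. intensity on hemocyte arrays and 11.5% to 12.8% on carcass arrays. Those called lower held 3.79% to 4.32% on hemocyte arrays and 32.1% to 33.3% on carcass arrays. These shares describe the calls and are no separate test, since the same arrays made the calls. On heads, which entered the calls only through the shared spread, the probe sets called higher held 10.8% to 14.9% and those called lower 22.1% to 30.2%. The median intensity of the probe sets called higher was 355 in hemocytes, 103 in carcasses and 102 in heads. For those called lower it was 17.8 in hemocytes, 198 in carcasses and 109 in heads. By these medians heads lay at the carcass level for the higher calls and between the other tissues for the lower ones.

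The brightest transcripts overlapped in part. Of the 100 brightest probe sets of each tissue by mean intensity, 48 were shared, 48% of either list. Among the 100 of hemocytes, 20 were called higher in hemocytes and 0 lower, and all of them ranked within the first 1000 in carcasses (0 beyond). Among the 100 of carcasses, 39 were called lower in hemocytes, 26 ranked beyond 1000 there and 5 beyond 5000, and 1 was below background on all 4 hemocyte arrays. Their differences ran from -8.25 to 0.64 on the log2 scale, against -0.75 to 4.34 for the hemocyte list.

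Measures over the whole array differed by small amounts. The 100 brightest probe sets took 21.5% ± 0.97 of the summed Ag. intensity in hemocytes (SD, n = 4) and 23.2% ± 0.34 in carcasses, lower in hemocytes on 4 of 4 arrays (exact two-sided permutation test, p = 0.029, adjusted p = 0.043 over 3 tests). The median Ag. intensity was 21 ± 0.81 in hemocytes and 23.7 ± 1.59 in carcasses, also without overlap (exact permutation p = 0.029, adjusted p = 0.043). An unadjusted p of 0.029 is the smallest that 4 arrays against 4 allow. The median level was thus lower in hemocytes although the median of the differences, 0.06, was above 0. The number of probe sets above background, 10276 ± 186 and 10455 ± 150, did not pass (exact permutation p = 0.17, adjusted p = 0.17). Correlations of log2 values, taken over probe sets and so not over independent units, were 0.96 to 0.976 between hemocyte arrays, 0.953 to 0.973 between carcass arrays and 0.795 to 0.819 between the tissues.

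Calls were more frequent among brighter probe sets. When the probe sets were ordered by mean log2 value over all 16 arrays and divided into 4 tiers of 4221, the dimmest, tier 1, had 6 higher and 1 lower call. Tier 2 had 118 and 109, tier 3 had 531 and 519, and the brightest, tier 4, had 1157 (27.4%) and 751 (17.8%). In tier 4 the lower and upper quartiles of the difference were -0.44 and 1.06, against -0.12 and 0.11 in tier 1, where the pseudocount of 16 holds differences near 0. Higher and lower calls were about equal in number in tiers 2 and 3, and most of the excess of higher calls lay in tier 4.

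The share of calls differed by the mark in a probe set's ID. Probe sets marked UTR, for untranslated region, were called lower in 18.4% of 790 cases and those marked CDS, for coding sequence, in 7.39% of 14060, beside the 8.17% of all. UTR probe sets were also brighter, with a median of 212 in carcasses against 18.7 for CDS ones. Within tier 4 the shares called lower were 22.7% of 537 UTR and 17.7% of 2890 CDS probe sets. In tier 3 they were 11.8% of 170 and 12.5% of 3446. Over all tiers UTR probe sets were also called higher more often, in 13.4% of cases against 10.5% for CDS and 10.7% for all. Within tiers the order varied, with 17.1% of UTR and 31.4% of CDS probe sets called higher in tier 4, 6.47% and 13.2% in tier 3, and 4.62% (3 of 65) and 2.81% in tier 2. No test was made of these shares.

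**Figure D4:**
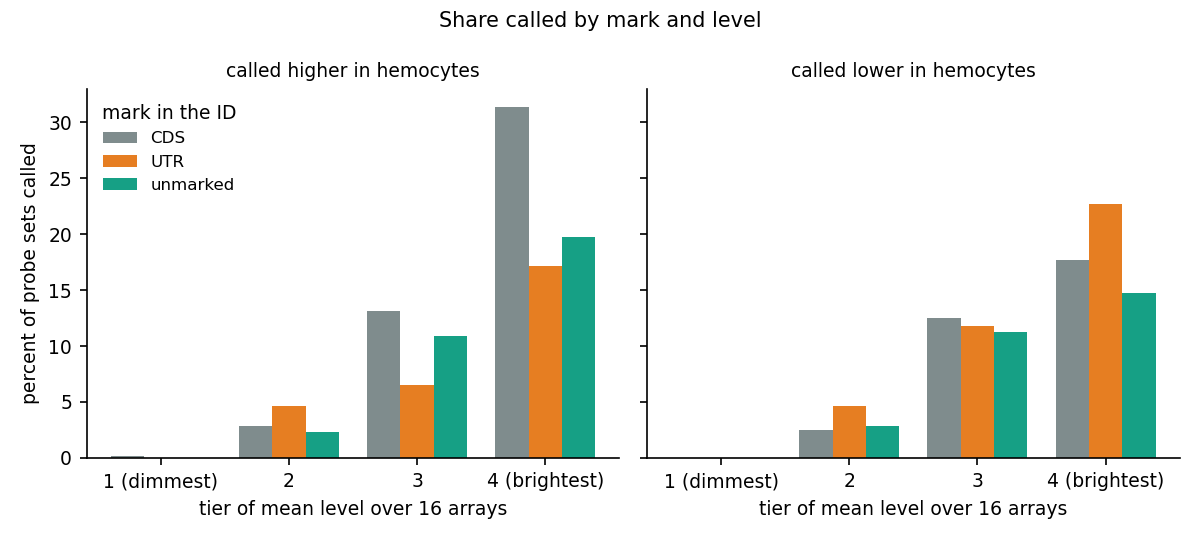
Percent of probe sets called higher (left) or lower (right) in hemocytes than in two-round carcasses, by tier of mean level over the 16 arrays (tier 4 is the brightest) and by the mark in the ID (CDS, UTR or unmarked). In tier 4 CDS probe sets have the highest share of higher calls, at 31.4%, and UTR ones the highest share of lower calls, at 22.7%.

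Control probe sets along 2 transcripts are given beside this, since they read the balance of 3' and 5' ends. For actin, a cytoskeleton protein, the 3' over 5' intensity ratio was 11.8 to 14.6 on hemocyte arrays and 22.3 to 29.4 on carcass arrays, without overlap (exact permutation p = 0.029, adjusted p = 0.057 over 4 ratios). For Gapdh, a glycolytic enzyme, it was 36.4 to 59.5 and 27.3 to 41.2, with overlap (exact permutation p = 0.086, adjusted p = 0.086). The ratio of 3' to middle probe sets was 2.06 to 2.33 and 3.17 to 3.46 for actin, again without overlap (exact permutation p = 0.029, adjusted p = 0.057). For Gapdh it was 1.47 to 2.22 and 1.31 to 1.57 (exact permutation p = 0.057, adjusted p = 0.076). None of the 4 ratios passed the adjusted threshold, and the hemocyte means lay below those of carcasses for both actin ratios and above them for both Gapdh ratios. The part of such end effects in the shares above was not tested.

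By chromosome arm in the ID, the share called higher ran from 10.3% on X to 12.4% on 3L and the share called lower from 7.78% on 3L to 9.98% on 2L. The 1938 probe sets with no arm stood lower in both directions, at 3.92% and 2.94%, and were dimmer, with a median of 9.55 in carcasses against 22.2 to 28.5 for the arms.

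Probe sets whose IDs share the arm and the first number were mostly called in the same direction. No source used here records what this shared stem stands for, and probes in common were not checked. There were 1657 stems with 2 or more probe sets, 3635 probe sets in all, and 261 of them had at least 2 calls. All calls were higher in 112 of these, all were lower in 145, and 4 had calls in both directions. Where exactly 2 probe sets of a stem were above background on all 8 arrays (598 stems), their log2 differences were apart by a median of 0.33, with 69 pairs more than 1 apart and 12 more than 2 apart. The stem with the most lower calls, picked after the values were seen, lies on arm 2R by its IDs and has 9 probe sets. Their means ran from 73.1 to 207 in hemocytes, 3770 to 11962 in carcasses and 4118 to 7343 in heads. All 9 were called lower, without overlap between the arrays, by -5.78 to -5.39 on the log2 scale (limma, largest adjusted p = 7.5e-08). The most higher calls in a stem were 3, and 1 such stem on arm 2L, with all 3 of its probe sets called, measured 155 to 404 in hemocytes, 27.8 to 57.6 in carcasses and 7.23 to 8.48 in heads. Another on arm 2L, also with all 3 called, measured 65.6 to 3172.5 in hemocytes, 15.45 to 894 in carcasses and 19.3 to 434 in heads.

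Replicates of a tissue agreed within a median SD of 0.27 in hemocytes and 0.26 in carcasses on the log2 scale, but single arrays stood apart at small groups of probe sets. These were found as probe sets where 1 array lay at least 4-fold above or below each of the other 3. Hemocyte replicates 1 and 3 had 0 such probe sets, replicate 2 had 17 above and 2 below, and replicate 4 had 8 above and 3 below. Carcass replicate 2 had 0, replicate 1 had 7 above, replicate 4 had 7 above and 1 below, and replicate 3 had 6 above and 33 below.

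The 8 probe sets high on hemocyte replicate 4 were mostly bright in heads. Their median was 1498 on that array and 3.76, 8.24 and 4.06 on hemocyte replicates 1 to 3. In heads it lay between 9885 and 12883, and in two-round carcasses between 3169 and 3518. All 8 were above background on all 4 heads, and in 6 of them every head array was above every carcass array. Of the 8, 6 were called lower in hemocytes than in carcasses, beside 8.17% of all probe sets. The 17 on hemocyte replicate 2 had a median of 433 there and 16.9 to 36.7 on the other hemocyte arrays. They lay at 153 to 316 in two-round carcasses and at 179 to 1021 in heads, and 9 of them were called lower in hemocytes. Both groups were found by lower values on the other hemocyte arrays, so these counts of lower calls are no separate result.

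**Figure D5:**
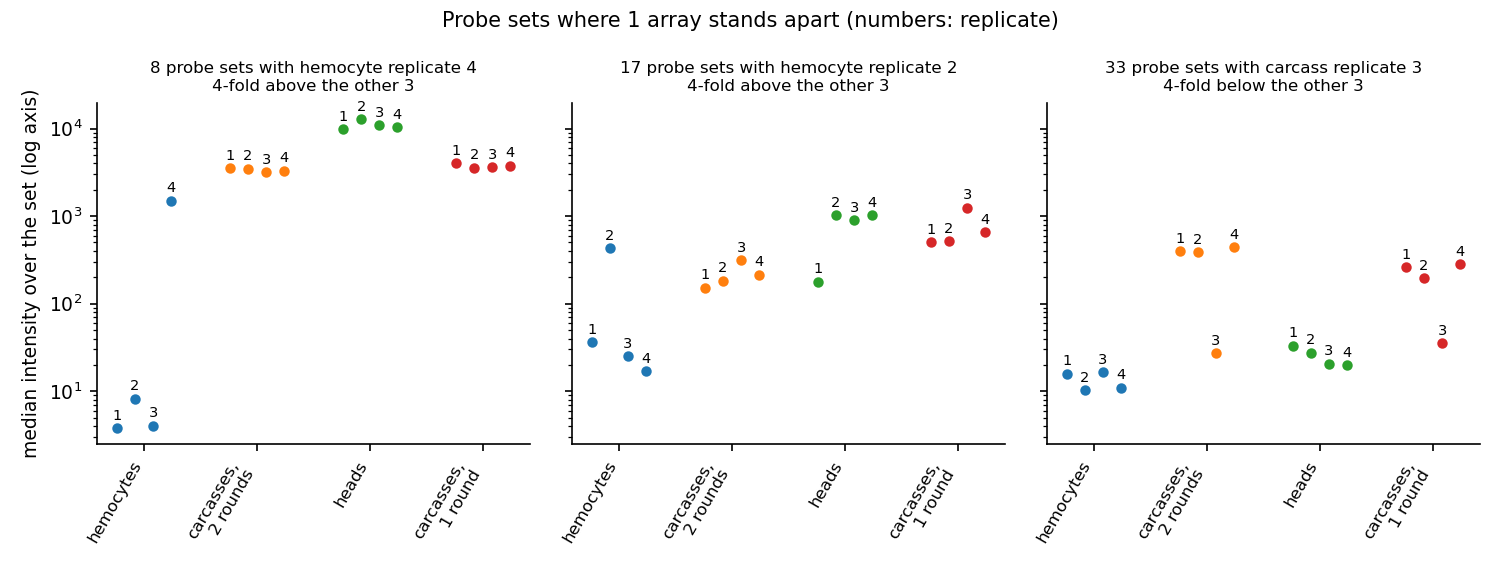
Median intensity, on a log axis, over 3 groups of probe sets on each of the 16 arrays, labelled by replicate number. The 8 probe sets of hemocyte replicate 4 (left) are brightest in heads, the 17 of hemocyte replicate 2 (middle) are at 433 on that array, and the 33 low on carcass replicate 3 (right) are also low on one-round carcass replicate 3.

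The 33 probe sets low on two-round carcass replicate 3 had a median of 27.3 on that array and 389 to 445 on the other 3. On the one-round carcass arrays, which were not used to find them, the median was 35.5 for replicate 3 and 194 to 282 for the others, and replicate 3 was the lowest of the 4 at 32 of the 33. In hemocytes the median was 10.4 to 16.6 and in heads 19.9 to 33.2. Of the 33, 25 were called lower in hemocytes, beside 8.17% of all probe sets. The 33 were found by higher values on the other 3 carcass arrays, so this count is no separate result. At these 25 the reference arrays themselves were uneven. The labels do not say whether carcass arrays of the same number share a pool. The 6 probe sets high on carcass replicate 3 behaved alike, with one-round replicate 3 the highest at 6 of 6, and so did the 7 of replicate 1 (7 of 7) and the 7 of replicate 4 (6 of 7). Without carcass replicate 3 the calls numbered 1769 higher and 1393 lower, without hemocyte replicate 2 they numbered 1650 and 1375, and without hemocyte replicate 4 they numbered 1795 and 1401.

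The hemocyte label that speaks of infected females was set against the 4502 Pf. probe sets. Their median intensity was 1.97 to 2.12 on hemocyte arrays and 2.12 to 2.69 on two-round carcass arrays. One of them, chosen here only because it was the single call (0.0222%), was higher in hemocytes, at 42.2, 28, 22.9 and 30.4 against 5.36, 5.21, 4.7 and 11.1 (limma, adjusted p = 0.00063 over the Pf. probe sets). At an unadjusted p under 0.05 there were 336 (7.46%), 109 higher in hemocytes and 227 lower, beside the 225.1 that 5% of 4502 comes to. A median over all Pf. probe sets need not show signal at a few of them, and the same probe sets set the background. Whether the females were infected was not tested.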

How the data were processed

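Each array gave 1 intensity value per probe set, linear and above 0, for 22761 probe sets. These deposited intensity values came from GCOS 1.4, per the submitters' processing notes. How probes were summarised, background-corrected and scaled was not given in the sources used. The analysis used log2(intensity + 16), with no further scaling, so changes of dim probe sets are understated. limma 3.58.1 (R 4.3.3; lmFit, eBayes) fitted all 4 groups of 4 arrays in 1 model, with 12 residual degrees of freedom, and p-values were adjusted by Benjamini-Hochberg over the 16884 Ag. probe sets. The fit treated all arrays as independent, although carcass arrays of the same number may share a pool. The exact permutation tests used scipy 1.17.1. Data were simulated from the measured means and spreads, with carcass means standing in for hemocyte ones and changes added on the log2(intensity + 16) scale. Only 200 of the 16884 probe sets were changed. On that scale 93% of 3-fold and 100% of 8-fold changes were recovered for hemocytes over two-round carcasses, with 4 false calls. At dim probe sets such a change stands for a larger one in intensity, so recovery of 3-fold intensity changes there was not tested. The data themselves had 3192 calls, so the 4 false calls do not measure the errors among those. Bounds on fold divided the bright group's geometric mean by the dim group's, with values below background raised to it. The number of arrays limits the precision. No probe set ID could be paired with a gene, so the marker lists prepared for hemocytes, fat body, muscle, midgut, head and ovary had 0 members measured, and the 2 largest rises and 2 largest falls among calls without overlap, above background on all 8 arrays, were named. The comparison, the rule for names and the tests were chosen with earlier results of these data known, and the groups of probe sets on which single arrays stood apart were formed after the values were seen. The main fit did not pair hemocyte with carcass arrays by replicate number. Deviations of same-numbered arrays from their group means correlated between -0.0047 and 0.031, which does not settle whether those pools were collected together. Alternatives covered the pseudocount, scaling, arrays in the fit, background, the carcass reference, the variance prior, a filter on dim probe sets and each array left out.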

Additional observations from a re-analysis of the deposited data

Results flagged for a closer look

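Among 22 groups of 4 arrays tested for an array far from the other 3, by the gap divided by the range against Dixon's 95% critical value, 2 passed, and chance passes about 1 in 20. Both were at Ag.3R.644.0_CDS_a_at, on the log2 scale. In two-round carcasses replicate 3 was low (gap over range 0.857), and in heads replicate 1 was low (0.997). Among the 4502 Pf. probe sets, 1 was called, which was higher in hemocytes than in two-round carcasses by 1.05 on the log2 scale (30.9 ± 8.18 against 6.59 ± 3.02 intensity units, SD, n = 4).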

How the results depend on the processing

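The 4 named probe sets kept their direction and passed under each of 17 alternatives. Of the 3192 calls, 6 were called in the opposite direction with one-round carcasses as the reference, where 2644 (82.8%) were shared, and 0 under each of the others. With a pseudocount of 64 the calls numbered 1087 higher and 883 lower (CDS 862 and 645, unmarked 144 and 124), with 11 and 141 at least 16-fold, against 28 and 260 as reported. With a pseudocount of 1 the latter were 51 and 477. With one-round carcasses as the reference there were 3169 higher calls, 60 of them at least 16-fold. Quantile normalization gave 1325 higher and 1399 lower calls and median centring 2152 and 1273. A replicate block in the 8-array fit gave 1797 and 1386, and 3155 of the 3192 calls were shared. Leaving out each array in turn gave 1650 to 1954 higher and 1342 to 1411 lower calls. The share in the brightest 100 then differed by -2.04 to -1.32 percentage points and the median intensity by -3.1 to -1.88 units, neither passing, since 3 arrays against 4 allow no p below 0.057. The median difference of all probe sets moved to 0.157 with median centring, 0.147 with a pseudocount of 1 and 0.020 with 64, that of CDS ones to 0.151, 0.143 and 0.018, with 0.085 under quantile normalization, and that of unmarked ones to 0.189 with median centring. Counts without overlap or by detection stayed within 1.5 times in each alternative run on them.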
